A study of Zea mays with 14 samples.

Results

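DNA methylation was mapped with the enzyme McrBC in shoots and roots of maize (Zea mays), inbred line B73, at 14 days. The comparison rests on 2 of the 14 libraries of the study, 1 from shoot and 1 from root, chosen by their titles. They gave 57514 methylation peaks in shoot and 37914 in root, out of 326867 peaks in all 10 chromatin lists. Methylated gene models numbered 7828 and 6871 out of 186790, in gene tables labelled as leaving out transposable elements. The other libraries profiled H3K4me3, H3K9ac, H3K27me3, H3K36me3, mRNA and small RNA in the same organs, and small RNA was left out of this comparison. Both groups share the inbred genotype and the age, and the labels name no treatment. DNA of each organ came from tissue pooled from 10 seedlings, was cut with McrBC, and fragments of 500 nucleotides and smaller were purified for sequencing, per the labels' protocols. With 1 library per organ there was no replicate, so no difference between organs was tested. The intervals given are 95% Wilson intervals, which cover counting error and not the variation between plants or libraries. Shoot and root are mixtures of cell types, and methylation in fewer cells cannot be told apart from a lower level in each cell.

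In plants, cytosines are methylated in CG, CHG and CHH contexts, where H is any base but G, and separate methyltransferases maintain each context. Maize DNA is heavily methylated over its many transposable elements, while methylation within genes is mostly of the CG kind. McrBC cuts between methylated cytosines that follow a purine, so that the short fragments it releases come from DNA with methylated sites close to each other. Unmethylated DNA stays long and is left behind on the gel. The assay therefore reads where dense methylation releases short fragments and gives no methylation level per cytosine.

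The peak lists hold a clone, a start and an end for each peak, with no score. A clone here is a piece of the B73 genome named by the files, and 15498 clones carried a peak of at least 1 of the 10 lists. The first clone in name order with peaks of both organs, AC177813.2, shows the form of the data. Its shoot peaks lay at positions 5205 to 5400, 9409 to 9594, 23839 to 24133, 134852 to 135051, 140515 to 140716 and 151543 to 151680. The root list had a single peak there, at 5365 to 5587, which overlapped the first shoot peak at its edge. The other 5 shoot peaks of the clone had no root peak on them.

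Methylation peaks were short in both organs. Their length had a median of 188 bp in shoot, with 25th and 75th percentiles of 159 and 232 bp, and a median of 162 bp in root, with percentiles of 129 and 214 bp. Lengths from 100 to 300 bp made up 89.9% of the shoot peaks and 84.8% of the root peaks. The shortest peak had 69 bp in shoot and 56 bp in root. The lists covered 12.2 Mb in shoot and 6.78 Mb in root. A few shoot peaks were far longer: 410 had 1000 bp or more, up to 7451 bp, against 1 peak of 1232 bp in root. These 410 peaks lay on 168 clones and held 6.71% of the peak length of shoot.

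The long shoot peaks had few counterparts in the root list and many in the H3K9ac lists. Of the 410 peaks of 1000 bp or more, 4 overlapped a root methylation peak (0.976%, interval 0.380 to 2.48%), compared with 6.71% of the shorter shoot peaks (6.51 to 6.92%). H3K9ac, an acetylation that marks the 5′ part of active genes, lay on 121 of them in shoot (29.5%, 25.3 to 34.1%) and on 86 in root (21.0%, 17.3 to 25.2%). Of the shorter peaks, 2.12% met H3K9ac of shoot and 1.05% that of root. H3K4me3, which usually lies beside H3K9ac, was on 2 of the 410 in shoot and on 20 in root. A longer peak has more room to overlap another, and no adjustment for length was made. The 20 clones with most length in such peaks held 30.3% of it.

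**Figure D1:**
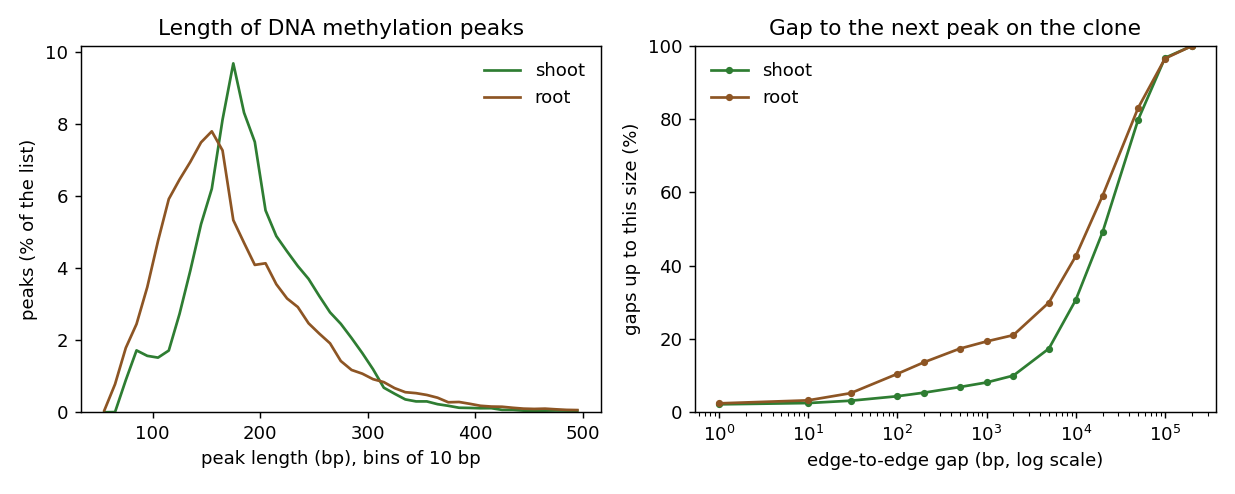
Distribution of peak length in bins of 10 bp (left, percent of each list) and cumulative distribution of the edge-to-edge gap to the next peak of the same list on the same clone (right, log axis, percent of gaps), for shoot and root. Root peaks were shorter (median 162 against 188 bp), and 17.4% of root gaps were at most 500 bp against 6.88% in shoot.

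Peaks were sparse along the clones in both organs, and root peaks lay in tight groups more often by count. The gap from one peak edge to the next on the same clone had a median of 20530 bp in shoot, over 42697 gaps, and of 13863 bp in root, over 26965 gaps. The 25th and 75th percentiles were 7727 and 43070 bp in shoot and 3319 and 35955 bp in root. Gaps of at most 500 bp made up 6.88% of the gaps in shoot (6.64 to 7.12%) and 17.4% in root (16.9 to 17.8%). Part of this difference lay at the shortest distances, since gaps above 0 and up to 100 bp were 2.26% of gaps in shoot and 8.16% in root. Neighbouring peaks touched or overlapped at 2.11% of the shoot gaps and 2.32% of the root gaps. At the other end, gaps over 50 kb were 20.2% of the shoot gaps and 16.9% of the root gaps. When peaks at most 500 bp apart were joined, the median gap was 22888 bp in shoot and 19688 bp in root. The 2 medians then differed by less than before.

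The joined peaks were mostly pairs. In shoot, 5453 peaks stood in groups, 9.48% of the list (9.24 to 9.72%), as 2273 pairs, 182 groups of 3 and 61 larger groups. In root, 8594 peaks did so, 22.7% of the list (22.2 to 23.1%), as 3449 pairs, 305 groups of 3 and 160 larger ones. A pair spanned a median of 477 bp in shoot and 443 bp in root, a span that follows from the lengths of 2 peaks and a gap of at most 500 bp. The largest group of the shoot list held 18 peaks on 4473 bp, and that of the root list 13 peaks on 3526 bp. Gaps of at most 500 bp were also frequent in H3K27me3, the Polycomb mark, at 24.7% in shoot and 37.8% in root. For H3K9ac the shares were 1.19% and 10.7%, for H3K4me3 6.06% and 10.1%, and for H3K36me3, a mark of transcribed gene bodies, 9.23% and 6.60%. 

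Most peaks of either organ had no peak of the other organ on them. The lists covered 12.2 Mb in shoot and 6.78 Mb in root. The clones summed to 2308 Mb, each counted up to its last peak of any list. Each list thus covered a far smaller share of the clones than the overlap shares that follow. No overlap by random placement was computed. A shoot peak had a root peak on it in 3837 cases, or 6.67%, and a root peak had a shoot peak on it in 3901 cases, or 10.3%. Another 1.05% of shoot peaks and 1.93% of root peaks lay up to 100 bp from a peak of the other organ without touching it. A distance above 100 and up to 500 bp added 1.80% and 3.53%. More than 5 kb separated 57.7% of the shoot peaks and 66.9% of the root peaks from the nearest peak of the other organ on the clone. For 24.0% of the shoot peaks the clone had no root peak at all, whereas 2.42% of the root peaks were on clones with no shoot peak. Within clones that had peaks of both organs, 8.77% of shoot peaks and 10.5% of root peaks overlapped.

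Longer root peaks were found again in shoot at higher shares. With the root list in 4 classes of about equal size, from the shortest to the longest peaks, 7.39%, 8.15%, 10.2% and 15.5% had a shoot peak on them, and 61 of the 164 root peaks of 500 bp or more did so (37.2%, 30.2 to 44.8%). The same classes of the shoot list gave 3.43%, 6.89%, 7.51% and 8.96%, but among the 821 shoot peaks of 500 bp or more the share was 4.38% (3.18 to 6.01%). Overlapping peaks were a little longer than the rest, with medians of 202 against 187 bp in shoot and 186 against 160 bp in root. These shares were not adjusted for the larger room that a longer peak offers. Of the peaks in groups, 12.8% of shoot and 12.9% of root overlapped the other organ, and of single peaks 6.03% and 9.52%. Where peaks overlapped, the other peak covered a median of 63.9% of the shoot peak and 71.0% of the root peak.

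The organs differed in how the peaks were spread over the clones. Shoot had a methylation peak on 14817 clones, or 95.6% of 15498, and root on 10949, or 70.6%. Both organs marked 10618 clones (68.5%), shoot alone 4199 (27.1%), root alone 331 (2.14%) and neither organ 350 (2.26%). The number of shoot peaks per clone had a single maximum at 3 peaks, which 2864 clones had, while 681 clones had none. In root, 4549 clones had no peak, 1927 had 1 and 2429 had 2, so the root counts had one maximum at 0 and another at 2 peaks. Whether both libraries were mapped to the same clones is not known here. A clone without a listed peak is therefore not shown to lack methylation. The variance over clones was 5.50 for a mean of 3.71 peaks in shoot and 5.70 for a mean of 2.45 in root. On the 10949 clones with a root peak the mean was 3.46, not far from the 3.88 of shoot on its own 14817 clones. The tenth of clones richest in peaks held 22.6% of the shoot peaks and 30.2% of the root peaks.

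**Figure D2:**
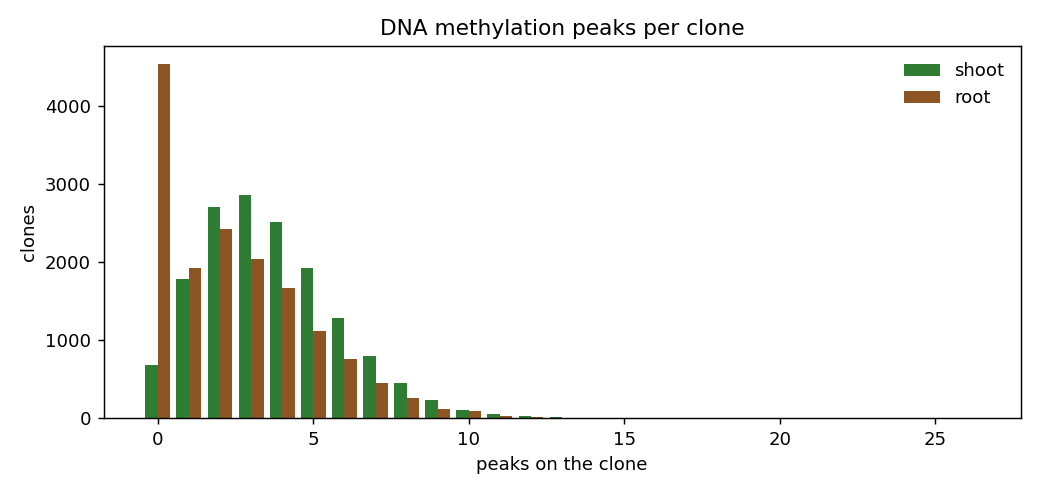
Number of clones (vertical axis) with each number of methylation peaks (horizontal axis) in shoot and root, over all 15498 clones. The bar at 0 stands for 681 clones in shoot and 4549 in root, and the most peaks on a clone were 26 in shoot and 19 in root.

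Small clones were empty at higher shares than large clones, in both organs. The extent of a clone was taken as the largest peak end of any list on it, methylation included, so that a clone without methylation peaks tends to get a smaller extent. In the fifth of clones with the smallest extent, up to 121 kb, 49.5% had no root peak and 10.5% no shoot peak. In the fifth with the largest extent, from 178 kb, these shares were 19.2% and 1.23%. With the extent taken from the histone lists alone, over the 14808 clones with a histone peak, 38.6% of the clones in the fifth of smallest extent had no root peak and 6.68% no shoot peak. In the fifth of largest extent these were 20.7% and 2.33%. The difference with size was then smaller and had the same direction. With the extent from all lists, the number of peaks per 100 kb hardly moved with size. Its values were 2.44 to 2.54 for shoot and 1.51 to 1.70 for root over the 5 size groups. Over all clones it was 2.49 in shoot and 1.64 in root. Among the 14130 clones of at least 100 kb, the median density was 2.33 per 100 kb in shoot (25th and 75th percentiles 1.49 and 3.32). It was 1.40 in root (0 and 2.57). This extent counts the methylation peaks themselves. With the extent from the histone lists alone, no density was computed. There, clones of up to 93.5 kb had means of 3.25 shoot and 1.96 root peaks. Clones from 168 kb had 4.33 and 2.99. These means differed by a smaller factor than the extents, so the flat density is stated only for the extent from all lists.

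Clones without a root peak were found at every number of shoot peaks. Of the 681 clones without a shoot peak, 51.4% had no root peak either (47.6 to 55.1%). The share was 30.8% of the 2864 clones with 3 shoot peaks (29.1 to 32.5%) and 12.8% of the 452 clones with 8 (10.1 to 16.2%). On the 88 clones with 12 or more shoot peaks it was higher again, at 33.0% (24.0 to 43.3%), although these clones had the most shoot peaks. In the other direction, 7.69% of the clones without a root peak had no shoot peak, against 0.369% of the 542 clones with 8 or more root peaks. The number after the point in a clone's name, taken here as its sequence version, moved with the empty clones too. Of the 970 clones of version 1, 51.5% had no root peak (48.4 to 54.7%), compared with 28.6% of version 2 and 26.9% of version 3. In shoot these shares were 6.08%, 4.23% and 4.56%. Version 1 clones also had the smallest extent, with a median of 130 kb against 154 kb for versions 2 and 3. The part of version and extent in the empty clones was not tested.

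**Figure D3:**
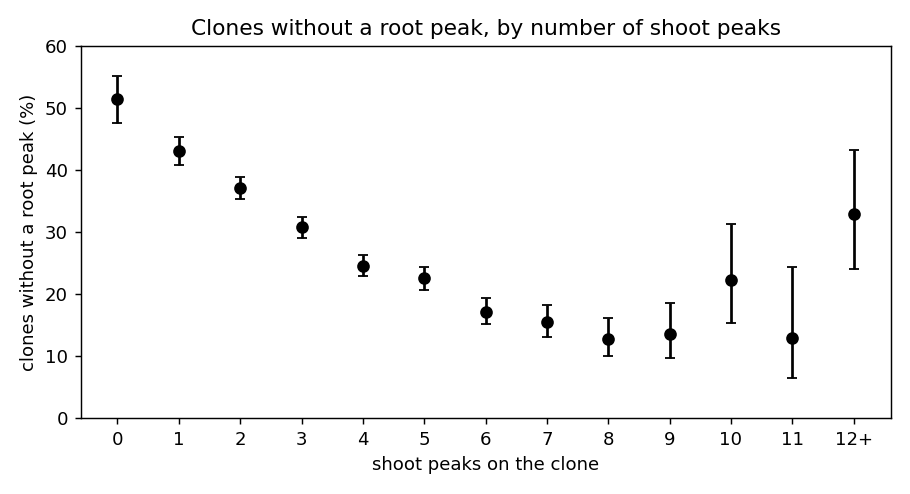
Share of clones without any root methylation peak (vertical axis, percent, bars are 95% Wilson intervals) by the number of shoot peaks on the clone (horizontal axis, the last point being 12 or more). The share went from 51.4% at 0 shoot peaks to 12.8% at 8 and stood at 33.0% at 12 or more.

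At the level of clones, the organs agreed weakly in the number of methylation peaks. Across 15498 clones, Spearman's rho between the numbers of shoot and root peaks was 0.228. This is a description, without a p-value, since clones share the library, the sequencing depth and the effect of clone size. In peaks per 100 kb, over clones of at least 100 kb, rho was 0.141. Within the 5 groups of clone size it lay between 0.126 and 0.190. With the overlapping peaks left out it was 0.126, and over the 10618 clones with peaks of both organs it was 0.107. The same measure was 0.829 for H3K4me3, 0.706 for H3K9ac, 0.716 for H3K36me3 and 0.544 for H3K27me3. Methylation peaks per clone were few, with means of 3.71 (variance 5.50) in shoot and 2.45 (variance 5.70) in root. Counting scatter lowers rho by an amount that was not estimated for any mark. The values are therefore not measures of agreement alone. Models of transposable elements were counted per clone from a separate list of typed models. Clones marked in both organs had a median of 38.5% models typed as transposable elements. Those marked in shoot alone and in root alone had 37.5% each, and those marked in neither 33.3%. The histone marks were somewhat fewer on the clones with shoot methylation alone than on those with both, for example 2.90 against 3.27 H3K4me3 peaks per clone in shoot, and these clones were also smaller (median extent 140 against 158 kb).

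Over all clones, the mean number of shoot peaks went from 3.03 on clones without a root peak to 4.81 on those with 8 or more. The 6 clones described next were chosen as the richest of 1 organ, so fewer peaks of the other organ follow from the choice. In shoot, clone AC196969.3 had 26 peaks between positions 406 and 173167, with a median gap of 546 bp, and 1 root peak. No histone peak of either organ was listed on it. Clones AC189058.2 and AC191932.3 each had 25 shoot peaks, of which 11 and 14 had 500 bp or more, and they had 6 and 0 root peaks. In root, clone AC206979.2 had 19 peaks between positions 50872 and 154648 with a median gap of 69.5 bp, none of 500 bp or more, against 2 shoot peaks. This clone also held 7 H3K36me3 peaks in root and 5 in shoot. Clone AC214528.2 had 17 root peaks and 7 shoot peaks, and AC205512.2 had 16 and 2. Of the 3 clones chosen for shoot, 4 of the shoot peaks overlapped a root peak, all on AC189058.2, and of the 3 chosen for root, 2 root peaks had a shoot peak on them, both on AC205512.2.

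Gene models were seldom listed as methylated in either organ. The gene tables give the methylated length of each model and its depth, the summed base coverage after a scaling by the authors. By their label, the tables leave out models of transposable elements, so the shares below are of the other models. Methylation was listed on 4.19% of these gene models in shoot and on 3.68% in root. Both organs listed 1730 models, or 0.926% of all, shoot alone 6098, or 3.26%, and root alone 5141, or 2.75%. Of the 12969 models methylated in at least 1 organ, 13.3% were so in both (12.8 to 13.9%), 47.0% in shoot alone and 39.6% in root alone. A model methylated in shoot was methylated in root in 22.1% of cases (21.2 to 23.0%), compared with 2.87% of the models not methylated in shoot (2.80 to 2.95%). Read from root, 25.2% of methylated models were methylated in shoot, against 3.39% of the others. For the histone marks, the models marked in both organs were 71.3% of those marked in either for H3K4me3, 49.5% for H3K36me3, 46.3% for H3K9ac and 23.0% for H3K27me3.

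Many gene models had identical values of all 5 marks in both organs, as overlapping or duplicate models would. Such repeats of an earlier model were 32.3% of the models methylated in shoot alone, 35.6% of those in root alone, 4.91% of those in both and 10.2% of those in neither. A model with no mark could not count as a repeat. Leaving out repeats can thus remove models without a histone mark from the methylated classes but not from the class listed in neither organ. With the first model of each set alone, the share methylated in both organs was 18.1%. In root, methylated lengths in the gene table were longer than the listed peaks. The methylated length per root gene had a 5th percentile of 161 bp and a median of 217 bp, whereas the root peaks had a median of 162 bp. In shoot the medians were 183 bp per gene and 188 bp per peak. The sources used here do not say how the authors assigned peaks to genes.

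The depth behind a gene was low. All depths were multiples of 1 step per library, and this step times the read length of 35 bases is called a read equivalent here. Of the methylated genes, 67.6% in shoot and 59.2% in root came out at whole numbers of read equivalents within 0.02. The median was 10.6 read equivalents in shoot and 11.0 in root, the 5th percentiles were 7 and 8, and at most 15 were behind 72.6% and 76.7% of the methylated genes. Few methylated genes were listed below these depths, 160 under 7 read equivalents in shoot and 43 under 8 in root, with minimums of 3 and 6. A gene listed at 0 is therefore not shown to be unmethylated. Methylated in a single organ, in both or in neither means only that it was listed so. Genes methylated in both organs had a median of 11.0 in shoot and 12.4 in root, and genes of a single organ had 10.2 in shoot and 11.0 in root.

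Deeply methylated root genes were methylated in shoot in most cases, whereas shoot genes had similar shares at every depth. Of root genes with up to 10 read equivalents, 18.6% were methylated in shoot (17.2 to 20.1%). The share was 32.5% above 15 and up to 20, 66.4% above 30 and up to 50 (57.6 to 74.2%), and 83.3% of the 60 genes above 50 (72.0 to 90.7%). Of shoot genes, 20.2% with up to 10 read equivalents were methylated in root (19.0 to 21.5%), and 25.2% of the 310 genes above 50 (20.7 to 30.3%). With the first model of each set of repeats, the lowest and highest classes were 30.5% and 85.7% for root genes and 31.3% and 25.3% for shoot genes. The 232 deep genes of shoot alone had a methylated length of 210 bp in the median, and 18 of them reached 500 bp. The 10 deep genes of root alone had a median of 980 bp and all reached 500 bp.

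**Figure D4:**
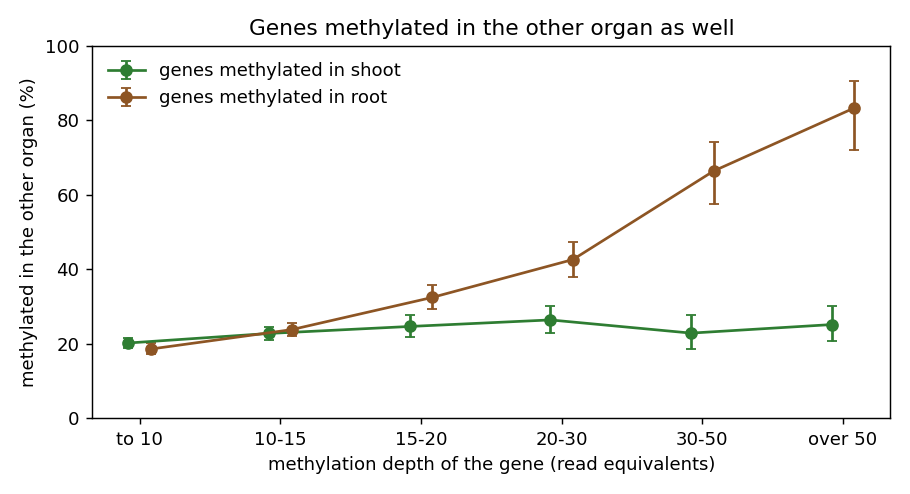
Share of methylated gene models that were methylated in the other organ as well (vertical axis, percent, bars are 95% Wilson intervals) by methylation depth in the first organ (horizontal axis, read equivalents). Root genes went from 18.6% in the lowest class to 83.3% in the highest, and shoot genes from 20.2% to 25.2%.

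Among the 1730 genes methylated in both organs, the amounts were related but not closely. Across these genes rho was 0.377 between the scaled depths and 0.264 between the methylated lengths. Both values are descriptions across genes, which are not independent replicates. The median log2 ratio of scaled depth, shoot over root, was -0.09, with 25th and 75th percentiles of -0.49 and 0.40. A scaled depth at least 2-fold higher in shoot was found in 164 genes, 9.48% of the 1730, and at least 2-fold higher in root in 135, or 7.8%. At 4-fold there were 40 genes higher in shoot and 6 higher in root. The methylated length was longer in root in 1192 genes (68.9%), longer in shoot in 531 and equal in 7. Root lengths in the gene table exceeded those of the root peaks, with medians of 217 and 162 bp. In shoot the medians were 183 and 188 bp. The longer lengths in root may therefore come from how the tables were made, and are not read as a difference between organs.

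Gene identifiers did not match the name table used here, so genes stay unnamed and without a position. Zm167328 had 649 read equivalents on 239 bp in shoot and was listed at 0 for root methylation, for every histone mark and for mRNA in both organs. Zm122060 had 480 read equivalents over 2023 bp in shoot and was listed at 0 in root. Its mRNA stood at 6463 reads on 328 bp in shoot and 76367 reads on 320 bp in root. Reads of mRNA are the summed coverage divided by the read length of 35 bases, and not counted reads. In root alone, Zm076573 had 375 read equivalents over 2709 bp and no mRNA listed, with H3K9ac over 2931 bp in shoot. Zm131218 had 240 over 1736 bp in root, with 1457 mRNA reads in shoot and 6494 in root. These values are from single libraries, and the genes are the extremes of their classes.

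The 2 genes of greatest summed depth carried all 5 marks in both organs, with methylation listed on short stretches. Zm071687 had 670 read equivalents over 159 bp in shoot and 2622 over 170 bp in root, and no mRNA listed. Its histone marks were also listed in both organs, among them H3K4me3, with 158 bp in shoot and 582 bp in root. Zm134698 had 654 over 78 bp in shoot and 2596 over 90 bp in root, with 82787 and 75514 mRNA reads. Its listed H3K4me3 length was 2369 bp in shoot, compared with 1442 bp in root. The scaled H3K4me3 depth of Zm134698 was 107100 in shoot and 3116 in root. For Zm071687 this depth was 103145 in shoot and 108304 in root. Genes with all 5 marks in both organs numbered 5, with medians of 468 read equivalents in shoot and 2057 in root.

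Genes methylated in a single organ had mRNA, H3K4me3 and H3K9ac at lower shares than genes listed in neither organ, whichever organ was methylated. This order held with or without repeated models, while for H3K36me3 the order depended on the repeats. Without repeats the difference was small for H3K9ac in root. The shares there were 8.72% in shoot alone and 8.93% in root alone, against 9.88% in neither. No intervals are given for shares without repeats. In shoot, mRNA was above 0 in 15.2% of the genes methylated in shoot alone (14.3 to 16.1%), in 16.2% of those in root alone (15.2 to 17.2%), in 22.5% of those in both (20.6 to 24.6%) and in 24.4% of those in neither (24.2 to 24.6%). In root the shares were 15.0%, 15.9%, 23.0% and 24.2%. The intervals of the 2 single-organ classes overlapped in each organ, and both classes stood low in the organ where no methylation was listed as well. With the first model of each set, mRNA in shoot was above 0 in 22.3% (both) and 21.4% (neither), which turned the order. Single-organ genes stayed below these 2 shares, at 17.6% for shoot alone and 18.7% for root alone. Leaving out repeats took only models with a histone mark from the class in neither, so the turned order is not read as a result about methylation. Where mRNA was above 0, its mean depth in shoot had medians of 6.36 for genes methylated in both, 5.53 for shoot alone, 5.68 for root alone and 6.18 for neither.

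H3K4me3 and H3K9ac were likewise lowest on the single-organ classes and, over all models, highest on genes methylated in neither organ. H3K4me3 in shoot was on 11.6% of the genes methylated in shoot alone, 11.6% of those in root alone, 16.4% of those in both (14.7 to 18.2%) and 26.7% of those in neither (26.4 to 26.9%). H3K9ac in shoot was on 12.8%, 12.3%, 18.4% and 25.7%. In root, H3K4me3 was on 9.12%, 8.38%, 14.5% and 20.6% of these classes, and H3K9ac on 6.69%, 6.52%, 11.1% and 12.5%. With the first model of each set of repeats, H3K9ac in root was on 10.9% of the genes methylated in both and 9.88% of those in neither. H3K4me3 in shoot was then on 16.2% of the genes methylated in both and on 20.3% of those in neither. It was on 16.0% of root alone and 15.3% of shoot alone. Only models with a histone mark left the class in neither by this step. Its shares could fall by the rule itself, so the turned order of H3K9ac is not read as a result about methylation. No histone mark was listed in shoot on 82.7% of the genes methylated in shoot alone and on 82.8% of those in root alone, compared with 75.3% in both and 68.1% in neither.

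H3K36me3 and H3K27me3 stood in genes methylated in both organs at or above their shares in genes listed in neither. In root, H3K36me3 was on 18.8% of genes methylated in both (17.0 to 20.7%), above the 14.1% of those in neither (13.9 to 14.3%). That share also stood above the 11.8% of genes methylated in root alone and the 11.4% of those in shoot alone. In shoot it was on 12.2% (10.7 to 13.8%), 11.7%, 7.47% and 7.64% of the same classes. With the first model of each set of repeats, single-organ genes stood above genes listed in neither organ instead. That step took only models with a histone mark from the class in neither. The single-organ shares rose as well. In root they came to stand above the 14.1% that genes in neither had over all models. The fall of the class in neither is thus not the whole of the turn in root. The order of H3K36me3 depends on the repeated models, so neither order is read as a result about methylation. The turns of H3K27me3 below are not read so either. In root H3K36me3 was then on 16.2% of the genes methylated in root alone, 15.1% of those in shoot alone, 18.7% of those in both and 11.1% of those in neither. In shoot it was on 9.99% of the genes in root alone and 10.1% in shoot alone, against 9.38% in neither. In shoot, H3K27me3 was listed for 4.39% of the genes methylated in both (3.52 to 5.46%), 3.62% of those in neither, 2.30% of those in shoot alone and 2.14% of those in root alone. In root its shares were 1.91%, 1.29%, 0.525% and 0.914%. With the first model of each set, the share of H3K27me3 in shoot was 3.12% in shoot alone against 2.97% in neither, and in root it was 1.21% in root alone against 1.09%, so that these orders turned as well. Each share rests on counts of models in single libraries.

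**Figure D5:**
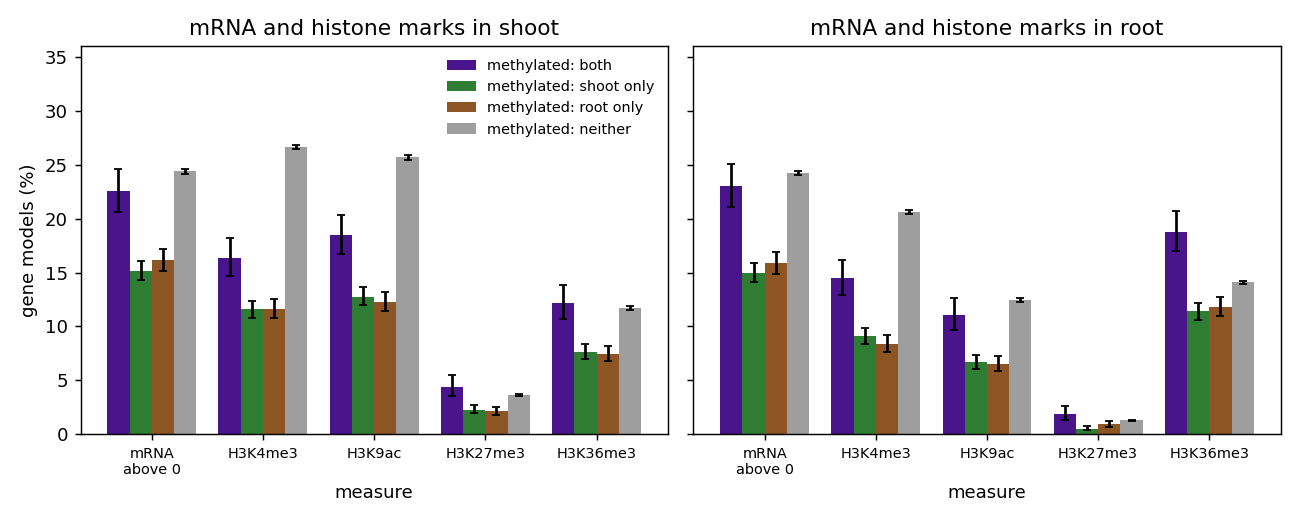
Share of gene models with mRNA above 0 and with each histone mark (vertical axis, percent, bars are 95% Wilson intervals) in shoot (left) and root (right), for models methylated in both organs (1730), in shoot alone (6098), in root alone (5141) and in neither (173821). Over all models, those methylated in a single organ stood lowest for mRNA and each mark. Without repeated models, H3K36me3 in root was on 16.2% (root alone) and 15.1% (shoot alone) against 11.1% (neither). That step took only models with a histone mark from the last class.

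With a pseudocount of 12 reads, methylated genes were at the background share among genes with more mRNA in shoot. They were below it among genes with more mRNA in root. The comparison used 26782 genes with at least 146 mRNA reads in 1 of the organs and a limit of 4-fold. Of all these genes, 13.2% were higher in shoot and 9.01% higher in root. Higher in shoot were 33 of 248 genes methylated in both (13.3%, 9.63 to 18.1%), 78 of 545 methylated in shoot alone (14.3%, 11.6 to 17.5%) and 58 of 445 methylated in root alone (13.03%, 10.2 to 16.5%). Higher in root were 11 of 248 (4.44%, 2.49 to 7.77%), 21 of 545 (3.85%, 2.53 to 5.82%) and 27 of 445 (6.07%, 4.20 to 8.68%). The shares of the 2 single-organ classes had overlapping intervals in both directions. The difference between these classes was not tested. With a pseudocount 10 times larger, higher in root were 1.61% (both), 2.39% (shoot alone) and 1.57% (root alone), against 3.33% (neither). These shares rest on few genes and are given without an interval. Whether they lie below 3.33% beyond counting error was not tested.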

How the data were processed

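The authors deposited peak intervals (clone, start, end) and a gene table for each organ, in which mark depths are signal (summed base coverage), scaled by 1 factor per library and not read counts. The sources used here do not give the peak caller, aligner, genome build or basis of the scaling. The number of reads of the McrBC libraries is unknown here. Samples were grouped by title, and table columns by mark and organ. From these files, gaps, overlaps of at least 1 bp on the same clone, peaks per clone, and gene classes (methylated length above 0) were computed with Python 3.11.15, pandas 2.3.3 and scipy 1.17.1. The functions for gaps, overlaps, joining, depth step and rank correlation were tested on simulated data. The gene classes, repeats and mRNA ratios were not tested in this way. Genes were joined by the number in their identifier. Reads of mRNA are the deposited summed coverage divided by the read length of 35 bases. mRNA ratios used this coverage with a pseudocount of 12 reads, and understate differences of low genes. None of the identifiers matched the RefSeq name table (0 matches), so a list of DNA methylation genes was not run. Named genes and clones are those of greatest depth or peak number. Peaks can start before a clone's first base (27 in shoot, 2 in root). Members, lists and rules were chosen with earlier results of these data known. No test was made, since each organ had 1 library.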

Additional observations from a re-analysis of the deposited data

How the results depend on the processing

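The alternatives gave 131 values. Of the 125 with a 95% counting interval around the main value, 62 lay inside it and 63 outside, and the other 6 are rank correlations, for which no interval was computed. Values outside and all rank correlations are printed here. No paired analysis was possible because each organ had 1 library. Depth limits every absence: a region with fewer than about 7 read equivalents is seldom listed. The ratio of peak numbers, root over shoot, was 0.659 as reported, 0.609 with peaks joined within 500 bp and 0.846 on clones with peaks of both organs. The median gap was 22888 bp in shoot and 19688 bp in root after joining, and 25920 bp in shoot with its longest peaks kept to the number of root peaks. The overlapping share of shoot and root peaks was 4.48% and 7.55% when at least 50% of the peak was covered, 9.53% and 15.7% within 500 bp, and 5.62% and 8.45% for peaks at or above the median length. Spearman's rank correlation of peak numbers over clones was 0.190 on clones with a peak in either organ, 0.141 by density, 0.126 without overlapping peaks, and 0.180 for longer peaks. In settings chosen after seeing the data it was 0.107 on clones with both organs and 0.231 without clones that held a shoot peak of 1000 bp or more. With clone extent from the histone lists alone, also chosen after seeing the data, clones without a root peak were 38.6% of the smallest and 20.7% of the largest size group, and those without a shoot peak 6.68% and 2.33%. Genes methylated in both organs were 18.1% of those methylated in either with the first of each set of repeated models, and 12.2% with depths from the 25th percentile. The following values are with the first of each set of repeated models. For genes methylated in shoot alone the shares in shoot and root were mRNA above 0 17.6% and 17.0%, H3K4me3 15.3% and 11.9%, H3K9ac 16.8% and 8.72%, H3K27me3 3.12% and 0.751%, H3K36me3 10.1% and 15.1%. For those in root alone the shares in shoot and root were mRNA above 0 18.7% and 18.4%, H3K4me3 16.0% and 11.5%, H3K9ac 17.1% and 8.93%, H3K27me3 2.90% in shoot, H3K36me3 9.99% and 16.2%. For those in neither the shares in shoot and root were mRNA above 0 21.4% and 21.2%, H3K4me3 20.3% and 15.8%, H3K9ac 19.7% and 9.88%, H3K27me3 2.97% and 1.09%, H3K36me3 9.38% and 11.1%. With these models, 8.62% of genes methylated in neither had higher mRNA in root. At a 2-fold limit, the shares of genes methylated in both, shoot alone, root alone and neither with higher mRNA in shoot were 18.5, 20.0, 19.1 and 19.2%, and in root 9.27, 9.54, 11.7 and 18.2%. With a pseudocount 10 times larger, the shares of genes methylated in both, shoot alone, root alone and neither with higher mRNA in shoot were 8.87, 6.42, 6.07 and 6.66%, and in root 1.61, 2.39, 1.57 and 3.33%.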
